A study of Mus musculus with 35 samples.

Results

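Leukocyte adhesion was followed through the transcripts of 9 genes, taken from the 53379 gene identifiers counted in each library. They encode 3 integrin alpha subunits (Itgam, Itgax and Itga4), 2 integrin beta subunits (Itgb2 and Itgb1), the selectin ligand PSGL-1 (Selplg), the hyaluronan receptor CD44 (Cd44) and 2 adhesion molecules of the immunoglobulin superfamily (Icam1 and Alcam). The genes were chosen by symbol, with a rule that uses no measured value, and all 9 were counted in every library used. Myeloid-derived suppressor cells (MDSC) were sorted from spleen and tumor of female C57BL/6 mice that carried orthotopic pancreatic tumors of T110299 cells, a single line derived from the pancreatic tumor of a genetically engineered mouse. All 8 mice were tumor-bearing, so that no group shows these cells in a healthy animal. Of these, 4 mice received poly(I:C)-PEI, a complex of 50 µg of the synthetic double-stranded RNA poly(I:C) with a polymer carrier, intravenously on days 18 and 20 after implantation; the complex is called poly(I:C)c here, and these mice are called treated. The other 4 mice are called untreated, and the treatment protocol names glucose as the control. CD11b+ cells were enriched on magnetic beads and sorted into PMN-MDSC (CD11b+ Ly6Clo Ly6G+) and M-MDSC (CD11b+ Ly6Chi Ly6G-), and pieces of untreated tumor were lysed directly as bulk tumor. CD11b is the product of Itgam, so that the presence of Itgam in the sorted cells follows from the sort.

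Integrins are heterodimers of an alpha and a beta subunit that bind counter-receptors on other cells or proteins of the extracellular matrix. The beta2 chain pairs with CD11b to form Mac-1 and with CD11c to form a complement receptor, both found on myeloid cells, whereas the alpha4 chain pairs with the beta1 chain to form VLA-4, which binds VCAM-1 on endothelium. PSGL-1 binds selectins and starts the rolling of leukocytes along vessel walls, CD44 binds hyaluronan in the matrix, ICAM-1 is the ligand of the beta2 integrins, and ALCAM binds CD6 on lymphocytes or another ALCAM molecule.

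The 9 groups held 3 or 4 libraries each, 34 in all. A further M-MDSC library from a treated tumor held 10 counts and was left out. The 30 MDSC libraries held 793070 to 4357105 counts of fragments in genes and the 4 bulk tumor libraries 3771590 to 8886115. A member held at least 20 counts in every MDSC library, and the lowest value was that of Itgax in a treated spleen PMN-MDSC library. Levels are given as CPM, counts scaled to library size, after TMM scaling over all 34 libraries, and levels of different genes are compared only per length, as FPKM, which is the CPM divided by the kilobases of summed exons. Replicate numbers below only name libraries, since the deposited columns carry no mouse number. Each mouse gave up to 4 sorted libraries, and the p-values measure the spread between these libraries.

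The labels of the sorted cells were compared with marker genes. In spleen PMN-MDSC the summed level of 10 neutrophil markers was 20943 to 38449 CPM in untreated and 43908 to 80727 CPM in treated mice, and Ly6g, the antigen of the sort, stood at 36.7 to 97.1 and 331 to 466 CPM. Tumor PMN-MDSC of untreated mice held 982 to 4074 CPM of the neutrophil list and 0 to 9.19 CPM of Ly6g, beside 9437 to 13471 CPM of 10 macrophage markers, for which spleen PMN-MDSC of the same mice held 579.6 to 1790 CPM. In treated mice, tumor PMN-MDSC held 3483 to 12322 CPM of the neutrophil list, 4.98 to 84.7 CPM of Ly6g and 8590 to 18188 CPM of the macrophage list. The name tumor PMN-MDSC is therefore used only for the sorted fraction. In untreated mice 10 monocyte markers summed to 5535 to 8329 CPM in spleen M-MDSC and 9599 to 13309 CPM in tumor M-MDSC. In treated mice they summed to 3251 to 4614 and 3938 to 5698 CPM. Tumor PMN-MDSC held 4962 to 9015 CPM of this list in untreated and 2161 to 4119 CPM in treated mice. Spleen PMN-MDSC held 938 to 2521 and 1039 to 1750 CPM. The part of this list in the results below was not tested. A single library stood apart in each of 3 groups, and in each 1 gene made up most of the marker sum. Tumor M-MDSC treated 2 held 27632 CPM of macrophage markers (5122 and 10683 CPM in the other libraries), of which 19696 CPM were Apoe, and the other 9 genes summed to 7936 CPM (1809 and 3736 CPM). Spleen M-MDSC treated 4 held 12411 CPM of B cell markers (146.5 to 412 CPM), of which 12229 CPM were Ighm, the immunoglobulin mu chain, and the other 6 genes summed to 182 CPM (34.3 to 47.0 CPM). Spleen PMN-MDSC untreated 1 held 3678 CPM of dendritic cell markers (981 to 1246 CPM), of which 2706 CPM were Cd74, the invariant chain of MHC class II that macrophages and B cells express too, and the other 8 genes summed to 972 CPM (229 to 317.5 CPM).

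**Figure D1:**
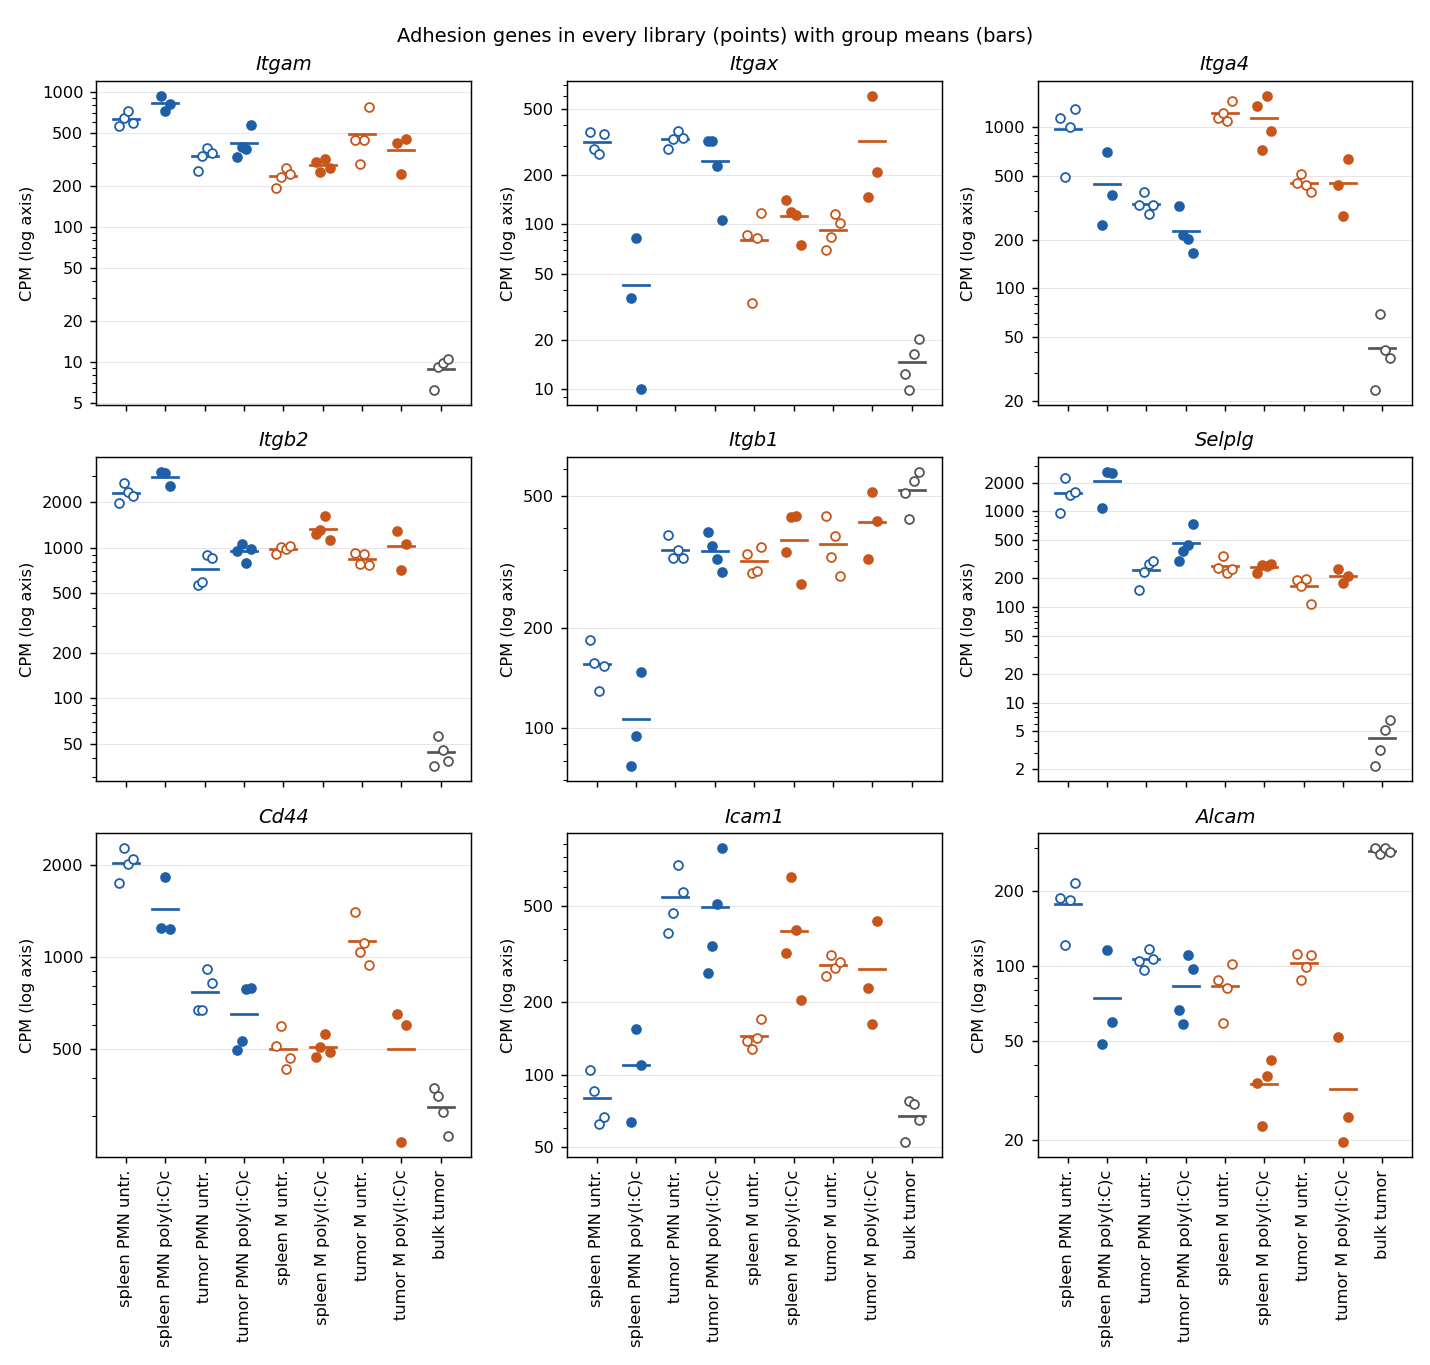
CPM of the 9 genes (log axes) in each of the 34 libraries by group, with blue for PMN-MDSC, orange for M-MDSC, grey for bulk tumor, open points for untreated and filled points for poly(I:C)c-treated mice, and bars at group means. Itgb2, Selplg and Cd44 are highest in spleen PMN-MDSC, Icam1 is lowest among MDSC in spleen PMN-MDSC, and Itgam, Itga4, Itgb2 and Selplg lie lower in bulk tumor than in every sorted library, whereas Itgb1 and Alcam have their highest means there.

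Per length, Itgb2 was the most abundant of the 9 transcripts in all 8 MDSC groups, with group means from 237 FPKM ± 55.8 (SD, n = 4) in untreated tumor PMN-MDSC to 969 FPKM ± 113 (SD, n = 3) in treated spleen PMN-MDSC. Alcam had the lowest mean in 6 of the 8 groups. In treated spleen PMN-MDSC the lowest mean was that of Itgax, at 8.90 FPKM ± 7.67 against 10.52 FPKM ± 5.10 for Alcam (SD, n = 3 each), which lie within 1 SD of each other. In untreated spleen PMN-MDSC, Selplg (369 FPKM ± 123) and Cd44 (300.5 FPKM ± 32.7) followed Itgb2 (755.5 FPKM ± 102; SD, n = 4 each), and Icam1 had the lowest mean, 18.3 FPKM ± 4.39, against 24.97 FPKM ± 5.54 for Alcam (SD, n = 4 each).

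The compartment was tested first, by setting tumor against spleen within a cell type and treatment. In untreated PMN-MDSC, 8 of the 9 genes differed at an adjusted p under 0.05 in edgeR's quasi-likelihood test with Benjamini-Hochberg adjustment over 7971 genes, 2 of them higher and 6 lower in tumor. This comparison called 59.1% of all genes tested, 29.4% as higher and 29.7% as lower. The median size of the difference was 1.31 on the log2 scale for the 9 genes and 0.75 for all genes. In untreated M-MDSC, 5 genes differed, 3 higher and 2 lower in tumor, where 28.4% of all 8298 genes were called, 15.7% as higher and 12.7% as lower, and the median sizes were 0.64 and 0.34. In treated mice 7 genes differed in PMN-MDSC, 3 higher and 4 lower, with 53.6% of all genes called, 28.2% as higher and 25.4% as lower. With libraries scaled by their totals alone, the share of higher genes among all calls was 28.7% in place of 55.2% in untreated M-MDSC and 74% in place of 52.6% in treated PMN-MDSC. No member was called in treated M-MDSC, where 5.87% of all genes were called by edgeR, 2102 of 9026 genes had an unadjusted p under 0.05, and DESeq2 called 2 members, Itgax and Itga4.

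Markers of other cells moved with these tumor-spleen differences. In untreated mice the 10 macrophage markers summed to 792 to 1013 CPM in spleen M-MDSC and 3545 to 8342 CPM in tumor M-MDSC, or without Apoe to 308.5 to 368 and 1470 to 2285 CPM, and the 10 neutrophil markers to 2573 to 5860 and 218 to 587 CPM. In PMN-MDSC of the same mice the macrophage list stood at 579.6 to 1790 CPM in spleen and 9437 to 13471 CPM in tumor, and the neutrophil list at 20943 to 38449 and 982 to 4074 CPM. None of these ranges overlapped, and their part in the differences of the 9 genes was not tested, so that tumor and spleen are compared below as sorted fractions and not as 1 cell type in 2 places.

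**Figure D2:**
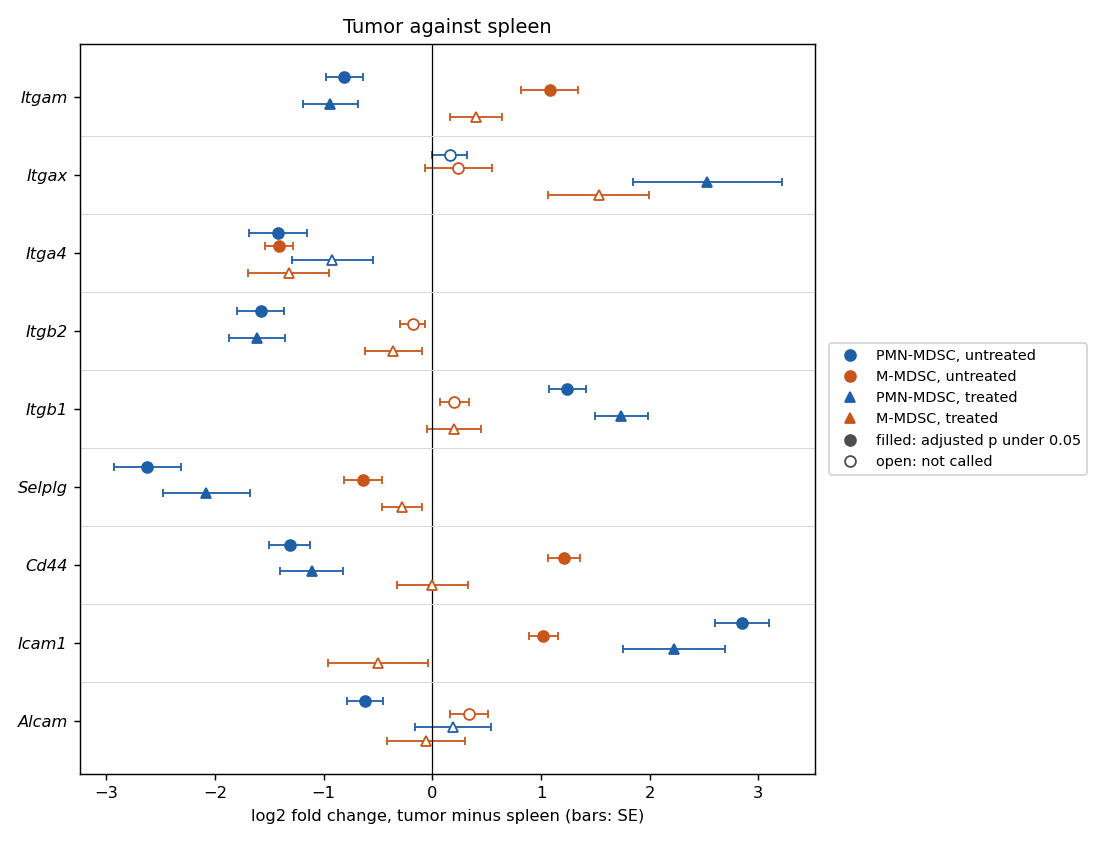
Log2 fold change of each gene between tumor and spleen (points, tumor minus spleen) with its standard error (bars), for PMN-MDSC (blue) and M-MDSC (orange) of untreated (circles) and treated mice (triangles), filled where the adjusted p was under 0.05. Selplg and Itgb2 lie to the left and Icam1 and Itgb1 to the right in PMN-MDSC, and Cd44 and Itgam lie on opposite sides in PMN-MDSC and M-MDSC of untreated mice.

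Whether the tumor-spleen difference itself differed between the sorted fractions was tested by the interaction of compartment and cell type in untreated mice. This term was called for 7 of the 9 genes, all but Itgax and Itga4, and for 37.3% of all 8278 genes tested. The cell types were also compared directly. In untreated spleen, 8 genes differed between PMN-MDSC and M-MDSC, 6 of them higher and 2 lower in PMN-MDSC, with 64.4% of all genes called, 30.9% as higher and 33.4% as lower. In untreated tumor Itgax and Icam1 were called, both higher in PMN-MDSC, with 13% of all genes called, 7.25% as higher and 5.73% as lower, and DESeq2 called Cd44 as well. Treated spleen gave 8 genes, 5 higher and 3 lower in PMN-MDSC, with 61.2% called, 28.8% as higher and 32.4% as lower. Under library totals alone the share of higher genes among all calls was 30.1% in place of 48.1% in untreated and 25.7% in place of 47% in treated spleen. Treated tumor gave 0 genes in edgeR, with 0.38% of genes called, 1153 of 8955 genes at an unadjusted p under 0.05, and 2 members (Selplg and Alcam) called by DESeq2.

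The effect of poly(I:C)c was called for fewer of the genes. In spleen PMN-MDSC 2 genes fell (Itgax and Alcam), with 11.6% of all 7261 genes called, 6.1% as higher and 5.52% as lower. DESeq2 called Itga4 as well, and scaling by library totals alone called 4 genes, with Itga4 (-1.48, adjusted p = 0.0481) and Cd44 (-0.80, adjusted p = 0.0241) added. In spleen M-MDSC Icam1 rose and Alcam fell, with 19.6% of 8827 genes called, 10.7% as higher and 8.96% as lower. Under library totals alone, 23.9% in place of 52.5% of all calls were higher in spleen PMN-MDSC and 43.8% in place of 54.4% in spleen M-MDSC. In tumor PMN-MDSC no member was called by edgeR or DESeq2, where 3.36% of genes were called and 1508 of 8308 genes had an unadjusted p under 0.05. In tumor M-MDSC Alcam fell, with 2.88% of 8360 genes called, 1.82% as higher and 1.06% as lower, and DESeq2 called Itgax and Cd44 as well. The median size of the change over the 9 genes was 0.48, 0.23, 0.32 and 0.31 on the log2 scale in these 4 comparisons, against 0.38, 0.29, 0.25 and 0.30 over all genes. The same libraries serve as controls or as tumor and spleen groups in several of these comparisons, so that their results are not independent of each other.

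Whether the treatment change differed between compartments or cell types was tested by 4 interactions. Itgax was called for PMN-MDSC against M-MDSC in spleen, where 10.9% of all genes were called. No member was called in edgeR for tumor against spleen in PMN-MDSC (3.5% of genes called, 1330 at an unadjusted p under 0.05, 1 member in DESeq2) or in M-MDSC (0.79%, 1238 genes, 2 members in DESeq2), or between cell types in tumor (0.0239%, 720 genes, 1 member in DESeq2).

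**Figure D3:**
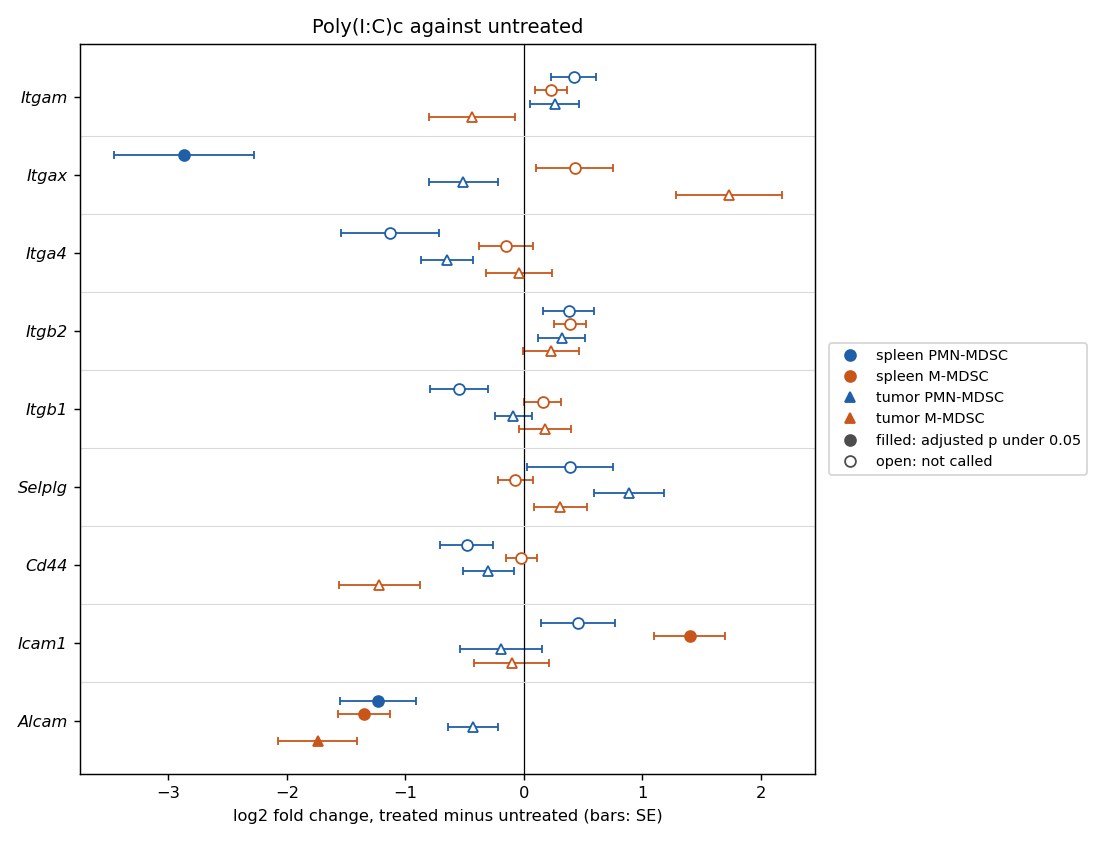
Log2 fold change of each gene between treated and untreated mice (points) with its standard error (bars), in PMN-MDSC (blue) and M-MDSC (orange) from spleen (circles) and tumor (triangles), filled where the adjusted p was under 0.05. The filled points are Itgax and Alcam in spleen PMN-MDSC, Icam1 and Alcam in spleen M-MDSC and Alcam in tumor M-MDSC.

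Itgam (chromosome 7, 128062640 to 128118491, plus strand, GRCm38), the gene of CD11b, differed between tumor and spleen in opposite directions in the 2 sorted fractions, in both of which the macrophage markers were higher in tumor. Untreated spleen PMN-MDSC held 561, 594, 645 and 718 CPM, and untreated tumor PMN-MDSC held 262, 336, 352 and 386 CPM. All tumor libraries lay below all spleen libraries, and the log2 fold change was -0.81 ± 0.171 (SE; adjusted p = 0.00221). Untreated M-MDSC held 194, 234, 248 and 274 CPM in spleen against 291, 439, 439.8 and 773 CPM in tumor, again without overlap but with the higher values in tumor (log2 fold change 1.08 ± 0.264, adjusted p = 0.00987). The difference between these 2 changes was -1.79 ± 0.319 on the log2 scale (adjusted p = 5.5e-04). In treated PMN-MDSC Itgam was lower in tumor than in spleen (-0.94 ± 0.253, adjusted p = 0.0129), a call that was lost when libraries were scaled by their totals alone (-0.52, adjusted p = 0.0805). Spleen PMN-MDSC held more Itgam than spleen M-MDSC, by 1.36 ± 0.141 in untreated and 1.51 ± 0.185 in treated mice on the log2 scale (adjusted p = 3.8e-05 and 3.1e-04). Treated spleen PMN-MDSC held 723, 822 and 938.5 CPM, above every untreated library, and the treatment change of 0.42 ± 0.193 was not called (adjusted p = 0.202). Itgam shares 3450 of its 5024 exon bases on the same strand with the protein-coding gene Gm49368, which held 934 counts over all libraries against 31707 for Itgam, and how fragments in shared exons were counted is not given in the sources used here.

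The promoter window of Itgam, shown because the myeloid factor PU.1 (Spi1) is known to act on this gene, holds the letters GAGGAA or, on the other strand, TTCCTC at 3 places. The windows span 250 bases before to 50 bases after the RefSeq transcription start on GRCm38 and were searched on both strands, and 28.3% of all 32851 windows hold the motif. Itgb1, Cd44 and Alcam hold it too, and Itgax does not. Capitals mark the motif.
Itgam chr7:128062544-128062573 (plus strand): tgttttctcccgGAGGAAggctacagaggg
Itgam chr7:128062613-128062642 (plus strand): tctcatagctttTTCCTCatacttctctgt
Itgam chr7:128062660-128062689 (plus strand): ggccttggtggcTTCCTCaaagtgtctgtg
A match is a description of the letters and not of binding. Windows were found for 7 of the 9 genes, all but Itgb2 and Selplg.

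Itgax (chromosome 7, 128129547 to 128150657, plus strand), which encodes CD11c and lies next to Itgam, was higher in PMN-MDSC than in M-MDSC of untreated mice in both compartments. Untreated spleen PMN-MDSC held 265.5, 285, 355 and 365 CPM against 33.3, 82.4, 85.8 and 118 CPM in spleen M-MDSC (log2 fold change 1.94 ± 0.317, adjusted p = 5.7e-04). Untreated tumor PMN-MDSC held 288, 327, 335 and 369 CPM against 69.8, 83.9, 101.5 and 115 CPM in tumor M-MDSC (1.91 ± 0.174, adjusted p = 3.4e-05). In neither compartment did the cell types overlap. Between tumor and spleen, untreated PMN-MDSC differed by 0.16 ± 0.161 and untreated M-MDSC by 0.24 ± 0.312, neither of which was called. In untreated tumor the dendritic cell markers summed to 5038 to 7330 CPM in PMN-MDSC and 3220 to 4951 CPM in M-MDSC. Without Cd74 they summed to 1146 to 1525 and 692 to 1036 CPM. The macrophage markers summed to 9437 to 13471 and 3545 to 8342 CPM. In untreated spleen the ranges of both lists overlapped between the cell types. Their part in the difference of Itgax was not tested.

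With poly(I:C)c, Itgax in spleen PMN-MDSC stood at 10.02, 35.6 and 82.7 CPM, below all 4 untreated libraries. Itgax fell by 2.87 ± 0.591 on the log2 scale, or 7.34-fold (adjusted p = 0.0192). The change was -2.81 without untreated library 1, which stood apart in Cd74 and the other dendritic cell markers (adjusted p = 0.0469), and the call was lost without untreated library 4 (-2.84, adjusted p = 0.0511). The summed markers of dendritic cells and macrophages moved with Itgax. The 9 dendritic cell markers summed to 981 to 3678 CPM in untreated and 69.1 to 108 CPM in treated spleen PMN-MDSC, with Siglech at 0 in both groups and Flt3 and Xcr1 in the treated libraries. Cd74 made up 751.5 to 2706 and 57.6 to 88.6 CPM of these sums, and the other 8 genes 229 to 972 and 11.5 to 19.6 CPM. The 10 macrophage markers summed to 579.6 to 1790 CPM and 182 to 281 CPM. Their part in the fall of Itgax was not tested. The change in spleen PMN-MDSC differed from that in spleen M-MDSC, where Itgax stood at 74.6, 113, 119 and 140 CPM after treatment, by -3.21 ± 0.691 on the log2 scale (adjusted p = 0.0117). Without untreated PMN-MDSC library 1 the difference was -3.12 (adjusted p = 0.0207), and without treated M-MDSC library 4, which stood apart in Ighm, -3.35 (adjusted p = 0.0128).

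In tumor PMN-MDSC of treated mice Itgax stood at 106, 224, 321 and 321 CPM, so that 2 of the 4 libraries lay within the untreated range and 2 below every untreated library. This change was not called. These values were higher than in treated spleen PMN-MDSC (log2 fold change 2.53 ± 0.682, adjusted p = 0.0133). In treated tumor M-MDSC the values were 145, 207.5 and 602 CPM, all above the untreated libraries, with a log2 fold change of 1.73 ± 0.446 that was not called by edgeR (adjusted p = 0.0715) and was called by DESeq2 (adjusted p = 0.00394). The highest value came from library 2, which stood apart in Apoe and the other macrophage markers, and without it the change was 0.90 (edgeR adjusted p = 0.0773). Without treated library 1 it was 2.07 and called (adjusted p = 0.0219). Against treated spleen M-MDSC these cells differed by 1.53 ± 0.466 (adjusted p = 0.100), by 0.69 without library 2 (adjusted p = 0.239) and by 1.88 without library 1 (adjusted p = 0.0451). Between the cell types of treated spleen, Itgax differed by -1.38 ± 0.599 (adjusted p = 0.0761), or by -2.34 without treated PMN-MDSC library 2 (adjusted p = 0.0108) and by -2.01 under library totals alone (adjusted p = 0.0164).

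Itga4 (chromosome 2, 79255426 to 79333123, plus strand), the alpha chain of VLA-4, was lower in tumor in both cell types. Untreated M-MDSC held 1095, 1144, 1217 and 1460 CPM in spleen and 399, 437, 451 and 509 CPM in tumor. The ranges were far apart, with a log2 fold change of -1.41 ± 0.133 (adjusted p = 1.1e-05). Untreated PMN-MDSC held 493, 1007, 1133 and 1288 CPM in spleen and 288.5, 327, 327 and 399 CPM in tumor (-1.42 ± 0.264, adjusted p = 0.00106). The spread in spleen PMN-MDSC came from a single library at 493 CPM, still above every tumor library. In treated mice the difference was -1.32 ± 0.372 in M-MDSC (adjusted p = 0.0817) and -0.92 ± 0.373 in PMN-MDSC (adjusted p = 0.0633), both short of the threshold in edgeR and past it in DESeq2 (adjusted p = 0.00543 and 0.0438). Without treated spleen PMN-MDSC library 1 or treated tumor PMN-MDSC library 1, the latter difference was -1.22 (adjusted p = 0.0205) or -1.09 (adjusted p = 0.0476) in edgeR.

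Treated spleen PMN-MDSC held 248.9, 378 and 704 CPM of Itga4, against 723, 942, 1347 and 1567 CPM in treated spleen M-MDSC. The log2 fold change between these cell types was -1.38 ± 0.423 (adjusted p = 0.0213), and the call was lost without treated PMN-MDSC library 1 (-1.07, adjusted p = 0.0546) or library 3 (-1.21, adjusted p = 0.0830). In untreated spleen the cell types differed by -0.37 ± 0.262, which was not called, and by -0.74 under library totals alone (adjusted p = 0.0386). The treatment changes of Itga4 in PMN-MDSC, -1.13 ± 0.412 in spleen and -0.65 ± 0.221 in tumor, were not called by edgeR (adjusted p = 0.115 and 0.153). DESeq2 called the former (adjusted p = 0.0454), and the latter was -0.87 without treated tumor library 1 (adjusted p = 0.0437). Itga4 shares exon bases with Cerkl on the opposite strand, and the fragments were counted by strand.

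Itgb2 (chromosome 10, 77530252 to 77565708, plus strand), the common beta chain of the CD11 integrins, was highest in spleen PMN-MDSC. Untreated spleen PMN-MDSC held 1966, 2193, 2358 and 2705 CPM, and untreated tumor PMN-MDSC held 566, 589, 852 and 889.5 CPM. The lowest spleen library was thus above every tumor library, and the log2 fold change was -1.58 ± 0.218 (adjusted p = 1.7e-04). Treated PMN-MDSC gave nearly the same difference, with 2560, 3134 and 3178 CPM in spleen and 785, 950, 983 and 1061 CPM in tumor (-1.61 ± 0.258, adjusted p = 0.00117). In untreated M-MDSC, 911, 978, 1011 and 1023 CPM in spleen stood against 763, 774, 903 and 919.7 CPM in tumor. These ranges overlapped, the difference of -0.18 ± 0.113 was not called, and the interaction with cell type was -1.29 ± 0.217 (adjusted p = 3.4e-04). Spleen PMN-MDSC exceeded spleen M-MDSC by 1.19 ± 0.130 in untreated and 1.14 ± 0.227 in treated mice (adjusted p = 5.5e-05 and 0.00292), whereas the 2 cell types from untreated tumor differed by -0.14 ± 0.165, which was not called.

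After poly(I:C)c, Itgb2 in spleen M-MDSC stood at 1120, 1235, 1314 and 1628 CPM, above every untreated library. The log2 fold change of 0.39 missed the threshold in edgeR (adjusted p = 0.0713) and passed it in DESeq2 (adjusted p = 0.0162). Without treated library 4, which stood apart in Ighm, it was 0.47 and passed in edgeR (adjusted p = 0.0260).

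Itgb1 (chromosome 8, 128685654 to 128733200, plus strand), the beta chain of VLA-4 and of many matrix receptors, showed the reverse order. Untreated spleen PMN-MDSC held 129, 154, 157 and 184 CPM, and untreated tumor PMN-MDSC held 324, 324, 343 and 381 CPM. No libraries overlapped, and the log2 fold change was 1.24 ± 0.169 (adjusted p = 1.6e-04). In treated PMN-MDSC it was 1.74 ± 0.246 (adjusted p = 6.6e-04), with 76.9, 94.6 and 148 CPM in spleen and 294, 323.5, 352 and 390.3 CPM in tumor. M-MDSC held group means of 319 to 418 CPM in all 4 conditions and differed between untreated tumor and spleen by 0.20 ± 0.134, which was not called. The interaction with cell type was 1.13 ± 0.203 (adjusted p = 5.9e-04). Spleen PMN-MDSC lay below spleen M-MDSC, with log2 fold changes of -1.07 ± 0.141 in untreated and -1.82 ± 0.277 in treated mice (adjusted p = 1.6e-04 and 8.1e-04). The treatment change in spleen PMN-MDSC, -0.55 ± 0.245, was not called (adjusted p = 0.191).

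**Figure D4:**
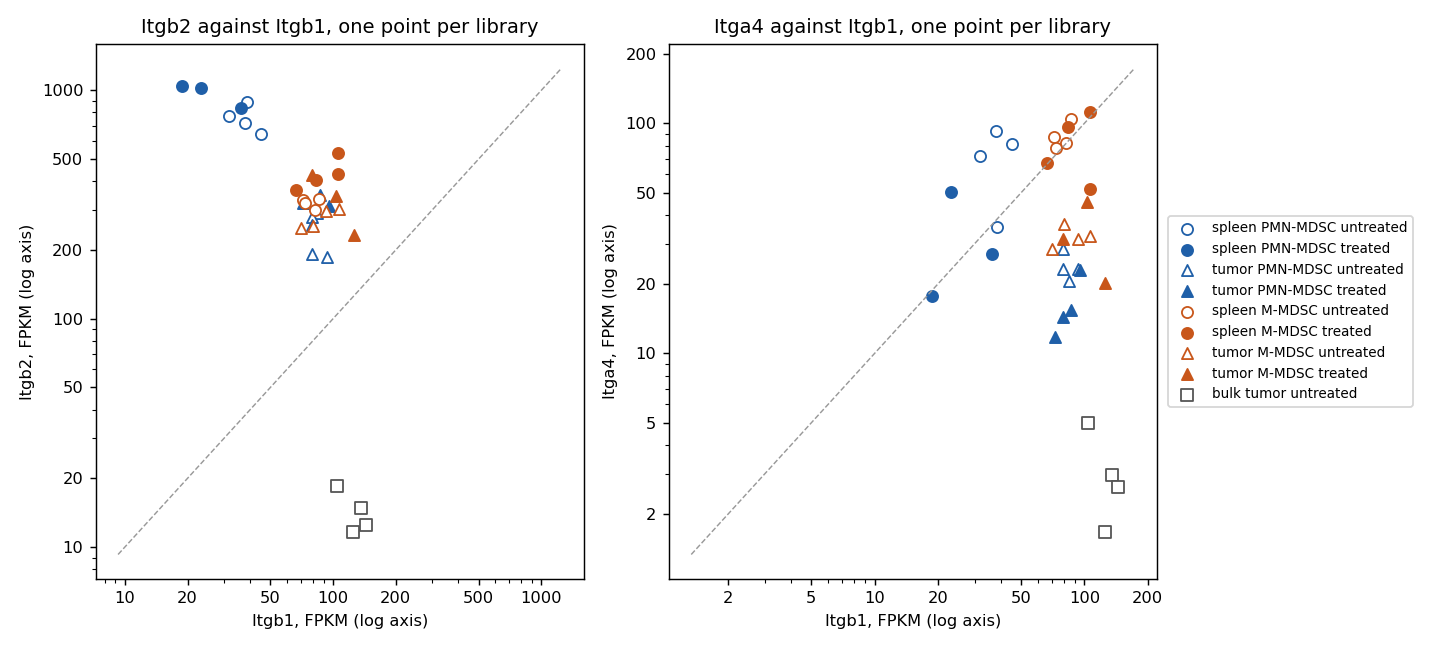
FPKM (log axes) of Itgb2 (left) and Itga4 (right) against Itgb1, with 1 point per library; blue marks PMN-MDSC, orange M-MDSC and grey bulk tumor, circles spleen, triangles tumor and squares bulk tumor, open untreated and filled treated, and the dashed line marks equal FPKM. Spleen PMN-MDSC stand apart at high Itgb2 and low Itgb1, the other MDSC lie together at ratios of 1.85 to 5.53 of Itgb2 to Itgb1, and bulk tumor lies below the line.

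Set side by side per length, the 2 beta chains separated spleen PMN-MDSC from the other groups. The FPKM ratio of Itgb2 to Itgb1 was 20.2 ± 4.55 in untreated (SD, n = 4) and 40.9 ± 16.3 in treated spleen PMN-MDSC (SD, n = 3), 14.3 to 55.2 over their libraries. In the 6 other MDSC groups the means ran from 2.85 ± 0.762 in untreated tumor PMN-MDSC to 4.87 ± 0.605 in treated spleen M-MDSC (SD, n = 4 each), and in bulk tumor the ratio was 0.117 ± 0.0416 (SD, n = 4). The ratio of Itga4 to its partner Itgb1 split the groups by compartment instead. It was 1.86 ± 0.683 and 1.13 ± 0.108 in untreated spleen PMN-MDSC and M-MDSC, and 0.287 ± 0.0526 and 0.375 ± 0.0679 in the same cells from tumor (SD, n = 4 each). In treated mice the spleen groups stood at 1.29 ± 0.772 (SD, n = 3) and 0.930 ± 0.3003 (SD, n = 4) and the tumor groups at 0.191 ± 0.0343 (SD, n = 4) and 0.333 ± 0.151 (SD, n = 3). The ratio of Itgam to Itgax was 1.96 ± 0.519 in untreated spleen PMN-MDSC, 0.964 ± 0.0628 in untreated tumor PMN-MDSC and 5.06 ± 1.90 in untreated tumor M-MDSC (SD, n = 4 each). In spleen M-MDSC it was 3.51 ± 2.19 in untreated and 2.58 ± 0.691 in treated mice, and in bulk tumor 0.611 ± 0.187 (SD, n = 4 each). With poly(I:C)c it stood at 2.23 ± 1.97 in tumor PMN-MDSC (SD, n = 4), 1.75 ± 1.23 in tumor M-MDSC (SD, n = 3) and 37.4 ± 36.6 in spleen PMN-MDSC (SD, n = 3), 8.37 to 78.4 over the latter 3 libraries. These ratios were not tested, and transcript ratios do not give the ratios of proteins on the cell surface.

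Selplg (chromosome 5, 113818536 to 113832644, minus strand), the gene of PSGL-1, showed the widest gap between compartments of the genes that were lower in tumor PMN-MDSC. Untreated spleen PMN-MDSC held 974, 1474, 1601 and 2250 CPM, and untreated tumor PMN-MDSC held 152, 230.2, 282.5 and 303.5 CPM. The lowest spleen value was above the highest tumor value, and the log2 fold change was -2.62 ± 0.310 (adjusted p = 6.6e-05). Treated PMN-MDSC held 1074, 2514 and 2586 CPM in spleen and 300.3, 384, 447 and 743 CPM in tumor (-2.08 ± 0.399, adjusted p = 0.00275). In untreated M-MDSC, 227, 248, 257 and 338 CPM in spleen stood against 106, 168, 194 and 194 CPM in tumor, a smaller difference (-0.64 ± 0.177, adjusted p = 0.0176) that lost its call without spleen M-MDSC untreated library 2 (-0.52, adjusted p = 0.0521). The interaction was -1.85 ± 0.353 (adjusted p = 9.2e-04). Selplg was also the gene with the largest difference between the cell types in spleen, higher in PMN-MDSC by 2.51 ± 0.248 in untreated and 2.95 ± 0.318 in treated mice on the log2 scale (adjusted p = 3.0e-05 and 1.8e-04). After poly(I:C)c, tumor PMN-MDSC differed from untreated ones by 0.89 ± 0.296, and spleen PMN-MDSC by 0.39 ± 0.362, neither of which was called (adjusted p = 0.143 and 0.544). In untreated tumor the cell types differed by 0.62 ± 0.218 (adjusted p = 0.0831), or by 0.78 without PMN-MDSC library 1 (adjusted p = 0.0175). In treated tumor they differed by 1.19 ± 0.336, which was not called by edgeR (adjusted p = 0.233) and was called by DESeq2 (adjusted p = 0.0283).

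Cd44 (chromosome 2, 102811141 to 102901665, minus strand), like Itgam, differed in opposite directions between tumor and spleen in the 2 sorted fractions of untreated mice. PMN-MDSC held 1746, 2019, 2101 and 2278 CPM in spleen and 668, 669, 823 and 911 CPM in tumor. M-MDSC held 429, 465, 508 and 591 CPM in spleen and 940.4, 1037, 1114 and 1410 CPM in tumor. Neither pair of groups overlapped, and the log2 fold changes were -1.31 ± 0.188 in PMN-MDSC and 1.21 ± 0.150 in M-MDSC (adjusted p = 2.1e-04 and 9.1e-05). Their difference, -2.42 ± 0.222, had the smallest adjusted p of the 9 interaction terms (2.4e-06). In spleen, Cd44 was higher in PMN-MDSC than in M-MDSC by 1.98 ± 0.149 on the log2 scale in untreated and 1.5 ± 0.221 in treated mice (adjusted p = 6.0e-06 and 7.0e-04). In untreated tumor PMN-MDSC stood against M-MDSC with no overlap at -0.48 ± 0.159 on the log2 scale, which was not called by edgeR (adjusted p = 0.0680) and was called without M-MDSC library 4 (-0.54, adjusted p = 0.0346). In treated tumor M-MDSC the values were 246, 596 and 649 CPM, all below the untreated tumor libraries. This change, -1.22 ± 0.340, was not called by edgeR (adjusted p = 0.0837) and was called by DESeq2 (adjusted p = 0.00800). The lowest value was that of library 2, which stood apart, and without it the change was -0.88 (edgeR adjusted p = 0.0525).

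Icam1 (chromosome 9, 21015985 to 21028817, plus strand), the ligand of the beta2 integrins, was the member called in the most comparisons between 2 groups, 7 of 12 without bulk tumor. Its promoter window is shown because NF-kB is known to drive this gene. The window holds the letters GGAANNNCC at 2 places, the former of which also reads as the motif on the other strand, and 18.5% of all windows of this length hold it on either strand. Capitals mark the motif in the lines below, which give the RefSeq sequence on GRCm38.
Icam1 chr9:21015777-21015806 (plus strand): acttcagtttGGAAATTCCtagatcgcagg
Icam1 chr9:21015846-21015875 (plus strand): gtctccacccGGAAATACCgaagccctcgt
Of the other 6 windows found, that of Itgb1 holds these letters at 1 place.

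Untreated PMN-MDSC held 62.5, 66.9, 85.8 and 104 CPM of Icam1 in spleen and 388, 468, 575 and 740.1 CPM in tumor. Every tumor library exceeded every spleen library, and the log2 fold change of 2.85 ± 0.248 was the largest of the 9 genes in this comparison (adjusted p = 1.2e-05). Untreated M-MDSC rose less from spleen, at 128, 138, 142 and 169.9 CPM, to tumor, at 256, 276, 293.5 and 315 CPM (1.02 ± 0.133, adjusted p = 1.3e-04). The interaction was 1.93 ± 0.269 (adjusted p = 7.7e-05). Between cell types, untreated PMN-MDSC stood below M-MDSC in spleen (-0.90 ± 0.183, adjusted p = 0.00199) and above them in tumor (0.99 ± 0.183, adjusted p = 0.00367). A single fit over all MDSC libraries gave -0.81 (adjusted p = 0.0520) and 0.99 (adjusted p = 0.0838), and neither was then called.

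With poly(I:C)c, Icam1 rose in spleen M-MDSC to 205, 319, 398 and 661 CPM, each above the 4 untreated libraries. The log2 fold change was 1.4, or 2.64-fold (adjusted p = 0.01001), and it was 1.64 (adjusted p = 0.00180) without treated library 4, which stood apart in Ighm and held the lowest of these values. Testing genes of any count gave 1.43, which was not called (adjusted p = 0.0624). In spleen M-MDSC 6 endothelial markers summed to 21.1 to 29.2 CPM in untreated and 117 to 277.5 CPM in treated mice. Of these, Cldn5 stood at 0 in both groups. In tumor M-MDSC, where the change of Icam1 was not called, they summed to 19.6 to 42.9 and 72.1 to 151 CPM. The dendritic cell markers of spleen M-MDSC without Cd74 stood at 293.5 to 652 and 45.6 to 114 CPM. The part of these lists in the rise of Icam1 was not tested. Spleen PMN-MDSC of treated mice held 63.7, 109.7 and 155 CPM of Icam1, a range that overlaps the untreated one, and stood below treated spleen M-MDSC (-1.86 ± 0.449, adjusted p = 0.00727). In treated PMN-MDSC the tumor remained above the spleen, at 265, 340.3, 509 and 868.5 CPM (2.22 ± 0.470, adjusted p = 0.00443). Treated tumor M-MDSC held 163, 229 and 433 CPM and differed from treated spleen M-MDSC by -0.50 ± 0.461, which was not called. Icam1 shares exon bases with the antisense gene Gm47079, which held 22 counts in all libraries.

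Alcam (chromosome 16, 52248996 to 52454074, minus strand) was the member with the most calls under treatment, falling in 3 of the 4 sorted groups. Spleen M-MDSC held 59.3, 81.7, 88.5 and 102 CPM in untreated and 22.8, 33.9, 36.2 and 42.1 CPM in treated mice. The groups did not overlap, and the log2 fold change was -1.35 (adjusted p = 0.00292). This was the one treatment call on these genes that held under every alternative tried, with -1.47 (adjusted p = 0.00165) without treated library 4. Tumor M-MDSC fell from 87.8, 99.0, 111 and 113 CPM to 19.6, 24.7 and 52.1 CPM (-1.74 ± 0.334, adjusted p = 0.0307). Without treated library 2, which stood apart, the change was -1.46 (adjusted p = 0.0285), and the adjusted p was 0.0680 to 0.133 without any single one of the 4 untreated libraries or without treated library 3.

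Spleen PMN-MDSC held 122, 185, 188 and 216 CPM of Alcam in untreated and 48.8, 59.6 and 116 CPM in treated mice (log2 fold change -1.23, adjusted p = 0.0419). All treated values lay below all untreated ones, and the call was lost, at adjusted p = 0.0825 to 0.162, without untreated library 1, 3 or 4 or without treated library 1 or 3. Beside Alcam, the summed dendritic cell markers were lower in every treated than in every untreated library of the spleen groups, and their ranges overlapped in tumor M-MDSC. In spleen M-MDSC they summed to 1572 to 3357 CPM in untreated and 245 to 621 CPM in treated mice, with Xcr1 at 0 in both and Cd209a in the latter, and in tumor M-MDSC to 3220 to 4951 CPM and 460.2 to 3430 CPM, with Siglech at 0 in both and Cd209a in the latter. Cd74 made up most of these sums, and the other 8 genes stood at 293.5 to 652 and 45.6 to 114 CPM in spleen M-MDSC and at 692 to 1036 and 100.3 to 811 CPM in tumor M-MDSC. Their part in the change of Alcam was not tested. In tumor PMN-MDSC, untreated libraries held 97.0, 105, 107 and 117.5 CPM of Alcam and treated libraries 58.5, 66.6, 97.1 and 111 CPM, which overlap, and the change of -0.43 ± 0.211 was not called. The dendritic cell markers did not overlap there, at 5038 to 7330 CPM in untreated and 445 to 2490 CPM in treated libraries. Without Cd74 they stood at 1146 to 1525 and 73.7 to 475 CPM.

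Between compartments, untreated tumor PMN-MDSC lay below spleen PMN-MDSC, with a log2 fold change of -0.62 ± 0.165 (adjusted p = 0.00788), a call lost when libraries were scaled by their totals alone (-0.49, adjusted p = 0.0520), and untreated M-MDSC differed by 0.34 ± 0.175, which was not called. Spleen PMN-MDSC exceeded spleen M-MDSC by 1.05 ± 0.212 in untreated mice (adjusted p = 0.00189). In treated mice they did so by 1.15 ± 0.345 (adjusted p = 0.0199), and that call was lost when libraries were scaled by their totals alone (0.53, adjusted p = 0.184) and without treated PMN-MDSC library 2 (0.68, adjusted p = 0.0708) or treated M-MDSC library 2 (0.95, adjusted p = 0.0506). In treated tumor the cell types differed by 1.43 ± 0.394, which was not called by edgeR (adjusted p = 0.233) and was called by DESeq2 (adjusted p = 0.0271).

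The scaling of libraries bears on every comparison with spleen PMN-MDSC. With library totals alone in place of TMM factors, which were 0.683 to 0.939 in spleen PMN-MDSC and 0.900 to 1.19 in the other groups, the median log2 fold change of all genes shifted by 0.14 and 0.44 for tumor against spleen in untreated and treated PMN-MDSC, by -0.38 and -0.58 for PMN-MDSC against M-MDSC in untreated and treated spleen, and by -0.31 for the treatment of spleen PMN-MDSC. For untreated M-MDSC it shifted by -0.26 between tumor and spleen. No called difference of the 9 genes changed its sign under this scaling.

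Bulk tumor was compared with the cells sorted from untreated tumors. A bulk library mixes tumor cells, stroma and leukocytes, and in it fewer cells of a type and less RNA per cell cannot be told apart. Of the 9 genes, 7 were lower and Alcam was higher in bulk tumor than in PMN-MDSC and than in M-MDSC. Of all 11138 genes tested against PMN-MDSC 69.5% were called, 36.1% as higher and 33.3% as lower, and of the 11022 tested against M-MDSC 69.2% were called, 38.2% as higher and 31% as lower. Selplg stood at 2.16, 3.21, 5.16 and 6.67 CPM in bulk tumor, with a log2 fold change of -6.04 ± 0.361 against tumor PMN-MDSC (adjusted p = 7.7e-08). Itgb2 stood at 35.4, 38.3, 45.05 and 56.6 CPM, with log2 fold changes of -4.32 ± 0.238 against tumor PMN-MDSC and -4.40 ± 0.224 against tumor M-MDSC (adjusted p = 2.7e-08 and 3.0e-08). Itgam, at 6.21 to 10.6 CPM, was lower as well, as follows from a sort on CD11b. The myeloid integrin genes were thus rare in bulk tumor, and the next 3 genes were not.

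Cd44 stood at 259, 309, 349.5 and 371 CPM in bulk tumor, with log2 fold changes of -1.53 ± 0.176 against tumor PMN-MDSC and -1.94 ± 0.202 against tumor M-MDSC (adjusted p = 1.1e-05 and 5.6e-06). Itgb1 stood at 427, 509, 555 and 589 CPM and differed from PMN-MDSC by 0.31 ± 0.156 and from M-MDSC by 0.40 ± 0.184, neither of which was called by edgeR (adjusted p = 0.0922 and 0.0717) and both of which were called by DESeq2 (adjusted p = 0.0143 and 0.00550). These calls turned on single libraries and on the processing. In edgeR without bulk tumor library 2 they became 0.39 (adjusted p = 0.0459) and 0.48 (adjusted p = 0.0426), and the latter was 0.55 without bulk tumor library 1 (adjusted p = 0.0295). With all libraries, library totals alone gave 0.61 and 0.59 (adjusted p = 0.00512 and 0.01295). Testing genes of any count gave 0.56 and 0.58 (adjusted p = 0.01455 and 0.0180). RLE size factors called the latter (0.49, adjusted p = 0.0291). Under library totals alone the median of all genes shifted by 0.28 and 0.19 in these comparisons. Alcam stood at 284, 287, 298 and 298.5 CPM, the highest of all groups, above tumor PMN-MDSC by 1.17 ± 0.129 and above tumor M-MDSC by 1.37 ± 0.142 (adjusted p = 8.1e-06 and 5.3e-06). Epithelial and tumor cell markers summed to 3823 to 5606 CPM in bulk tumor and to 92.7 to 599.9 CPM in untreated tumor PMN-MDSC.

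Other genes of adhesion were counted from lists of 69 genes. In untreated PMN-MDSC, 38 of them were tested between tumor and spleen, of which 6 were higher and 22 lower in tumor, where 29.4% of all genes were called as higher and 29.7% as lower. Of 13 tested genes of integrin activation and linkage to the cytoskeleton 11 were lower and 0 higher, among them Rasgrp2, an exchange factor for Rap1 (-3.87 ± 0.256, adjusted p = 2.9e-06), and Vcl, which encodes vinculin (-2.21 ± 0.213, adjusted p = 2.3e-05). Itgal, the alpha chain of LFA-1 that pairs with Itgb2, fell from 1688 to 199 CPM on average (-2.99 ± 0.249, adjusted p = 9.5e-06). Itga6, a laminin receptor chain that pairs with Itgb1, rose from 16.5 to 117 CPM (2.93 ± 0.198, adjusted p = 3.1e-06), and Itgb5 from 43.4 to 245 CPM (2.59 ± 0.425, adjusted p = 4.9e-04). In untreated M-MDSC 36 genes were tested and 10 were higher and 10 lower in tumor, beside 15.7% and 12.7% of all genes. There Itga6 (2.61 ± 0.332), Itga5, the fibronectin receptor chain (1.68 ± 0.225), and Itgb5 (1.66 ± 0.200) were higher and Itgal (-1.59 ± 0.201) was lower (adjusted p = 1.1e-04, 1.6e-04, 7.3e-05 and 1.1e-04).

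In untreated spleen, 20 of 40 tested adhesion genes were higher and 6 lower in PMN-MDSC than in M-MDSC, where 30.9% of all genes were called as higher and 33.4% as lower. St3gal6 and Gcnt1, glycosyltransferases that act on PSGL-1, were higher by 6.14 ± 0.350 and 2.71 ± 0.172 on the log2 scale (adjusted p = 1.8e-06 and 2.4e-06). Under poly(I:C)c, 2 of 38 tested genes were higher and 6 lower in spleen PMN-MDSC, 5 of 37 higher and 2 lower in spleen M-MDSC, and 1 higher and 1 lower in each of the tumor groups (38 tested in PMN-MDSC and 36 in M-MDSC). Of all genes, 11.6% and 19.6% were called in spleen PMN-MDSC and M-MDSC and 3.36% and 2.88% in tumor PMN-MDSC and M-MDSC. Vcam1, the ligand of VLA-4, fell in spleen PMN-MDSC from 213 to 16.5 CPM (-3.72 ± 0.575, adjusted p = 0.00673), Itgad, another alpha chain of the beta2 family, fell from 43.5 to 1.68 CPM (-4.72 ± 0.596, adjusted p = 0.00368), and Fermt3, which encodes the integrin activator kindlin-3, rose in spleen PMN-MDSC (0.94 ± 0.186, adjusted p = 0.0174) and in spleen M-MDSC (0.54 ± 0.105, adjusted p = 0.00624). Beside Vcam1 and Itgad, the macrophage markers of spleen PMN-MDSC, a list that holds Vcam1, stood at 579.6 to 1790 CPM in untreated and 182 to 281 CPM in treated mice and the dendritic cell markers at 981 to 3678 and 69.1 to 108 CPM, and their part in these changes was not tested.

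Across the 30 MDSC libraries, some of the 9 genes followed Itgb2, others ran against it, and the rest did neither closely. Pearson's r of log2(CPM + 1) with Itgb2 was 0.86 for Selplg, 0.67 for Itgam and 0.62 for Cd44, -0.83 for Itgb1 and -0.65 for Icam1, and 0.13 for Alcam. Itgax had r of -0.29 to 0.29 with the other 8 genes and Itga4 of -0.41 to 0.28. The points share groups, mice and scaling factors, so that these values take in differences between the groups, and correlation within groups was not computed. The transcripts most like each gene over the same libraries, of 8533 compared, were Arpc5 for Itgb2 (r = 0.97), Klf2 and Rac2 for Selplg (0.97 each), Arid5a for Cd44 (0.95), Spred1, Elk3 and Ctsc for Itgb1 (0.95 each), Lrrfip1 for Itgam (0.89), Nfkbie, an inhibitor of NF-kB, for Icam1 (0.87), Tmpo for Itga4 (0.86), Clec4n for Itgax (0.85) and Cux1 for Alcam (0.84).

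For each gene the group means were also put in order, and groups next to each other were compared by the ranges of their libraries. Of the 8 neighbours in the order of each gene, 5 to 8 overlapped. Alcam had 3 steps without overlap, Itgam, Itgb2 and Selplg had 2, Itga4, Itgb1 and Cd44 had 1, and Itgax and Icam1 had 0. With 3 or 4 libraries in a group, such a step describes these libraries and does not fix the order of the groups. The share of such steps over all genes is not given. A step of Itgam, treated above untreated spleen PMN-MDSC, was not called by edgeR (adjusted p = 0.202).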

How the data were processed

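RNA of sorted MDSC and of bulk tumor was sequenced from rRNA-depleted, strand-specific total RNA libraries. The deposited values are raw counts of fragments per gene, for which the authors mapped reads to mm10 (GRCm38) with ContextMap using BWA and counted them by strand with featureCounts (Subread 1.4.6-p3) on Gencode annotation. The counts hold no molecular identifiers, so that intervals of counting error would not cover amplification. The deposited columns name groups and not mice, and no 2 libraries of a group were identical (48 pairs, chi-square per degree of freedom 6.19 to 49.5).

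Of 35 libraries, 34 were used. Testing was limited to genes averaging 25 counts or more among the groups in question, with edgeR 4.0.16 (quasi-likelihood test, TMM, robust, R 4.3.3) and Benjamini-Hochberg adjustment, fitted on those groups alone. Interactions were fitted over the 4 groups concerned. Library totals ran from 793070 to 8886115 counts. CPM and FPKM were computed here from the counts. Calls had an adjusted p under 0.05, and shares of all genes called are those of edgeR with TMM factors unless another setting is named. The alternatives were RLE size factors, library totals alone, no filter on low counts, 1 fit over all MDSC libraries, DESeq2 1.42.0, and each library left out in turn. The scripts were tested on simulated data.

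The 9 genes and the lists were chosen with earlier results of these data known. The rule for named genes took all 9 in every comparison, of which small differences that were not called are not all printed, with up to 3 called genes of each list of other adhesion genes by smallest adjusted p, and the genes most correlated with each member. Marker lists of other cell types were read as summed levels, with single defining markers given beside them. Promoter sequence came from RefSeq windows on GRCm38, and protein sequences were not analysed here. Figures were drawn with matplotlib 3.10.9. Some items of the lists and of the study's description are not reported here.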

Additional observations from a re-analysis of the deposited data

Results flagged for a closer look

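Of 45 interaction terms over the 9 genes, each of which compares 1 effect between cell types or between compartments, 8 were called (edgeR quasi-likelihood test, Benjamini-Hochberg adjustment). The change of Itgax under poly(I:C)c in spleen was lower in PMN-MDSC than in M-MDSC by -3.21 on the log2 scale (adjusted p = 0.0117), in an interaction that called 10.9% of all genes. The other 7 terms compare the tumor-spleen difference of untreated PMN-MDSC with that of untreated M-MDSC, for which 37.3% of all genes were called. They were negative for Cd44 (-2.42, adjusted p = 2.4e-06), Selplg (-1.85, adjusted p = 9.2e-04), Itgam (-1.79, adjusted p = 5.5e-04), Itgb2 (-1.29, adjusted p = 3.4e-04) and Alcam (-0.88, adjusted p = 0.0130), and positive for Icam1 (1.93, adjusted p = 7.7e-05) and Itgb1 (1.13, adjusted p = 5.9e-04). The term of Alcam was not called under library totals alone (-0.57, adjusted p = 0.103) or in one fit over all MDSC libraries (-1.0, adjusted p = 0.05103). Under library totals alone the median of all genes in this comparison shifted by 0.31, and under RLE size factors by -0.16. The 9 genes in the groups of 4 libraries gave 63 sets of values tested for a library far from the others, of which 0 held one. The groups of 3 libraries, treated spleen PMN-MDSC and treated tumor M-MDSC, were not tested.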

How the results depend on the processing

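Of the counts of members called, 0 of 19 moved by over 1.5 times under RLE size factors. Under library totals alone the treatment of spleen PMN-MDSC gave 4 calls, its difference between tumor and spleen PMN-MDSC 1, and that between the cell types in spleen 3. Of all genes, these comparisons called 1182, 573 and 1194 under library totals alone, against 844, 282 and 914 with TMM factors. One fit over all MDSC libraries gave 4 calls for treatment in spleen PMN-MDSC, 3 in tumor M-MDSC, 2 for tumor against spleen in treated M-MDSC, 1 and 2 between the cell types in untreated and treated tumor, and 1 for the treatment difference between tumor and spleen PMN-MDSC. Without the filter, treatment gave 1 call in spleen M-MDSC, 1 in tumor PMN-MDSC and 3 in tumor M-MDSC, tumor against spleen in treated M-MDSC 2, the cell types in untreated and treated tumor 4 and 3, and the treatment differences 1 (tumor against spleen, PMN-MDSC), 3 (M-MDSC) and 2 (between cell types in tumor). DESeq2 gave 3 for treatment in tumor M-MDSC, 2 for tumor against spleen in treated M-MDSC, 2 between cell types in treated tumor, and 1, 2 and 1 for the same 3 treatment differences. The share of all genes called is not given for 1 fit, no filter or DESeq2. Whether more members were called there only because more genes of any kind were called was not tested. Leaving out 1 library gave 0 to 2, 2 to 3, 0 to 1 and 0 to 2 calls for treatment (spleen PMN-MDSC, spleen M-MDSC, tumor PMN-MDSC, tumor M-MDSC), 0 to 1 for tumor against spleen in treated M-MDSC, 2 to 3 between cell types in untreated tumor, and 0 to 1 for each of the 3 treatment differences. Without tumor M-MDSC treated library 2 the Itgax difference between cell types in treated tumor turned from -0.34 to 0.50, neither called, with a range of -0.64 to 0.50 over single libraries left out. Alcam's interaction of compartment and cell type lost its call under library totals (-0.57, adjusted p = 0.103) and in one fit (-1.0, adjusted p = 0.05103), and Selplg in untreated M-MDSC in one fit (-0.65, adjusted p = 0.12). The cause of these changes was not tested. No paired analysis was possible because the deposited columns carry no mouse number that the labels state. Each of the 9 genes held at least 20 counts in every MDSC library.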
